A study of Mus musculus with 4 samples.

Results

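The 44 genes described here encode the chains of mouse collagens and were chosen by name, as every symbol made of Col, a number, the letter a and a number, out of 21153 genes named on the array. They comprise 11 fibrillar chains, 6 chains of type IV collagen, which builds basement membranes, and 27 chains of other types. RNA of small intestine from wild-type mice and from Cyp3a-/- mice, which lack the Cyp3a cluster of drug-oxidising cytochrome P450 genes, was read on 1-colour arrays, with 2 arrays per genotype and, per the labels, different animals in the independent experiments. Age, sex, strain background, diet and the number of animals behind an array are not given in the sources used here, so the spread between arrays may be technical in part and p-values measure only that spread. A level here is a probe's log2 signal minus the array's own 75th percentile, so 0 is that percentile, and a log2 difference of 1 is a 2-fold difference. Between 55.1% and 64.4% of 39429 probes were well above background on an array, and having 4 arrays in all limits how precise any value can be.

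Collagens are matrix proteins whose chains wind around each other into rope-like helices, which depend on a regular repeat of glycine. In the gut wall, fibroblasts and smooth muscle cells make the fibril-forming collagens of the lamina propria, submucosa and muscle layers, and type IV collagen forms the sheet on which the epithelium, vessels and muscle cells rest. Other collagens decorate fibrils, link basement membranes to the stroma or span the cell membrane.

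Cyp3a11, the gene of the deleted cluster used to check the labels, stood at 5.05 in wild type 1, 5.78 in wild type 2, -5.77 in knockout 1 and -4.52 in knockout 2, and in the knockout its probe was not well above background on either array. Limma's fit over 14396 genes called 0 genes higher and 6 lower in the knockout (0.0417% of genes, adjusted p under 0.05), all of them cluster genes. Wild type 2 and knockout 1 shared a slide and its scan, and the other arrays lay on slides of their own. The epithelial marker genes Vil1, Epcam and Cdx2 were well above background on all 4 arrays. Knockout 1 correlated with the other arrays at 0.948 to 0.966 across genes, and the other 3 arrays with each other at 0.979 to 0.981. Results that rest on knockout 1 are therefore given with and without it.

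Of the 44 collagen genes, 27 had a probe well above background on at least 2 arrays and were tested: 7 of 11 fibrillar, 5 of 6 type IV and 15 of 27 others. All but Col4a4 and Col26a1 of these were well above background on all 4 arrays. The 17 genes below the filter were Col2a1, Col11a1, Col24a1 and Col27a1 among the fibrillar chains, Col4a3, and Col6a5, Col6a6, Col8a1, Col9a1, Col9a3, Col10a1, Col13a1, Col17a1, Col19a1, Col22a1, Col25a1 and Col28a1. Col27a1, Col8a1 and Col9a1 were well above background on 1 array each and the other 14 on none. They include the cartilage chains Col2a1, Col9a1, Col9a3, Col10a1 and Col11a1 and the hemidesmosome chain Col17a1, an anchor of skin epithelium.

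No collagen gene differed between the genotypes past the threshold. Limma called 0 of 27 (against 0.0417% of all genes), with 0 at an unadjusted p under 0.05 (against 0.445% of all genes), and its adjusted p was 1.00 for each. What stood out instead was a single array: knockout 1 had the lowest level of the 4 arrays for 25 of 27 collagen genes, where 32.6% of all genes were lowest there. The count was 23 after normexp background correction, 22 after quantile normalization and 25 both in the authors' table and when scaled over probes detected on all arrays, where 42.8% of all genes were lowest in knockout 1. In knockout 1 all 27 genes lay below the wild-type mean, with a median of -0.76 (-0.40 after normexp), and 7 of them by at least 2-fold, as did 6.38% of all genes. In knockout 2 the median was 0.11, and 13 of the 27 lay above both wild-type arrays, against 33.6% of all genes, and 4 below both, against 26.6%. In 0 of the 27 were both knockout arrays above both wild-type arrays, against 8.66% of all genes. Over all genes tested the medians were 0.032 in knockout 1 and 0.036 in knockout 2. Both knockout values are set against the same wild-type arrays. The knockout arrays thus lay on opposite sides of the wild-type mean for 19 of 27 collagen genes, and the mean over them hides this. In a bulk sample, fewer collagen-making cells and less collagen RNA per cell cannot be told apart.

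**Figure D1:**
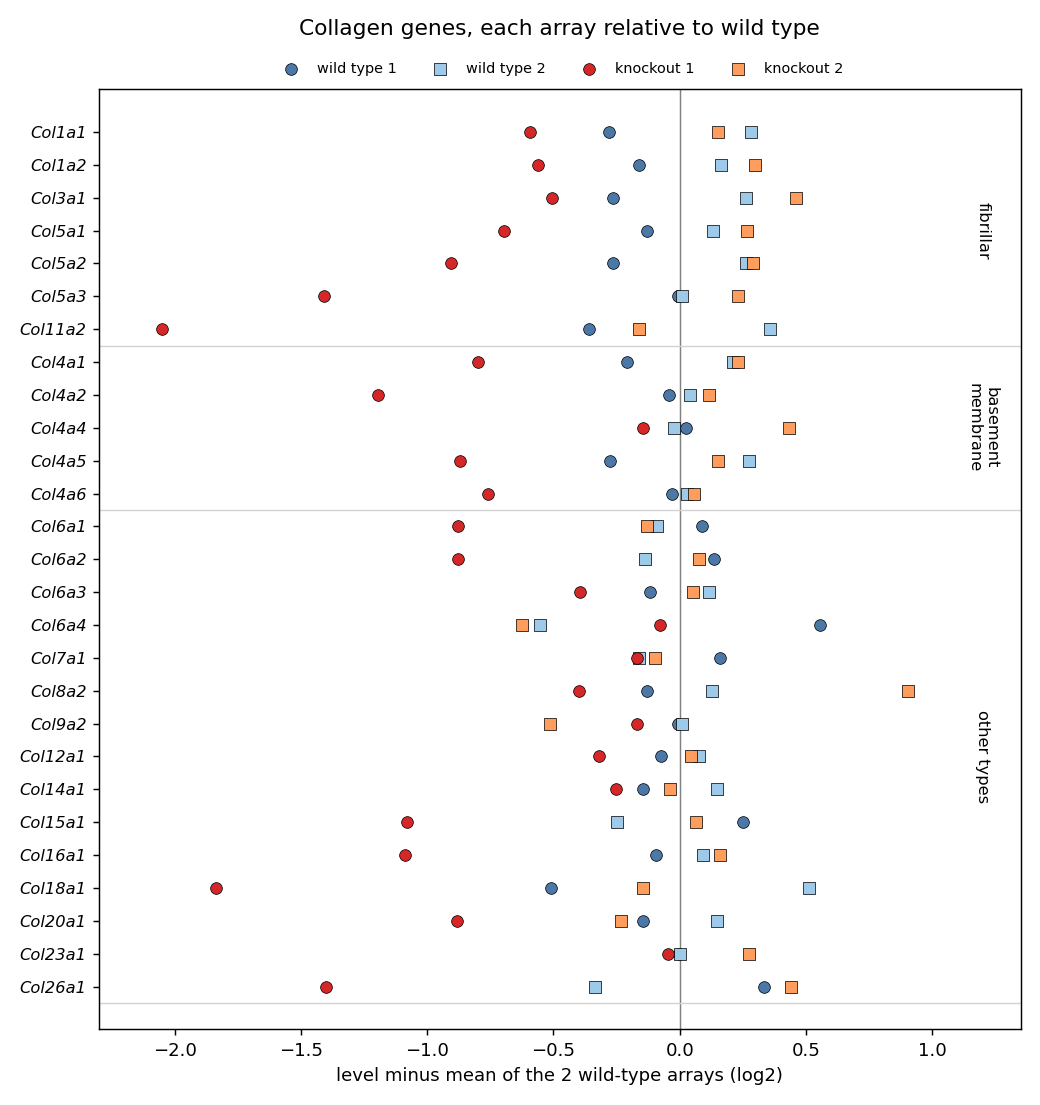
Level of each of the 27 tested collagen genes on each array, minus the mean of the 2 wild-type arrays of that gene (log2, horizontal axis), by class. Circles are replicate 1 and squares replicate 2 of each genotype; knockout 1 (red circles) is the lowest point for 25 of 27 genes, with the largest distances for Col11a2 at -2.05 and Col18a1 at -1.84.

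The fibrillar collagens form the tensile fibres of connective tissue. Col1a1 encodes a chain of type I collagen, the main fibril of the submucosa. Its level was 1.32 in wild type 1, 1.88 in wild type 2, 1.00 in knockout 1 and 1.75 in knockout 2. Its partner chain Col1a2 had 3.24, 3.56, 2.84 and 3.70 in the same order. Col3a1, whose type III collagen forms thin fibres with type I, had 2.61, 3.13, 2.36 and 3.33. In all 3 genes knockout 1 was lowest and wild type 1 next. Knockout 2 was highest for Col1a2 and Col3a1, while for Col1a1 wild type 2 was highest, and the genotypes overlapped in each. The log2 difference, knockout minus wild type, was -0.22 for Col1a1 (SE 0.37), -0.13 for Col1a2 (SE 0.37) and -0.022 for Col3a1 (SE 0.41), each with limma's adjusted p of 1.00. For Col3a1 limma's 95% interval ran from -1.01 to 0.97, so it reached just past 2-fold lower and just short of 2-fold higher.

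Type V collagen starts and limits the width of type I fibrils. Its chain genes Col5a1, Col5a2 and Col5a3 had log2 values relative to the wild-type mean of -0.69, -0.90 and -1.41 in knockout 1 and of 0.27, 0.29 and 0.23 in knockout 2. Col5a3 stood at -1.64 in wild type 1, -1.62 in wild type 2, -3.04 in knockout 1 and -1.40 in knockout 2. Its wild-type arrays nearly coincided while the knockout arrays lay on either side of them (SD 0.011 and 1.16, n = 2 each). Col11a2, a chain of type XI collagen best known from cartilage, had the largest difference among the collagens under the scaling used here. After quantile normalization it was level with Col18a1, at -1.05 each, and after normexp Col18a1 came first. The level of Col11a2 was -2.41 in wild type 1, -1.69 in wild type 2, -4.10 in knockout 1 and -2.21 in knockout 2. The log2 difference was -1.11 (SE 0.67, interval from -2.73 to 0.52, adjusted p = 1.00). Knockout 1 lay -2.05 from the wild-type mean and knockout 2 -0.16, between the wild-type arrays. After normexp the difference of Col11a2 was -0.36, against -0.97 for Col18a1. The 7 fibrillar chains had a median difference of -0.22, and all 7 were negative. After normexp the median was -0.12. Set against the wild-type mean, their median was -0.69 on knockout 1 and 0.27 on knockout 2, and within the slide that held both genotypes, knockout 1 minus wild type 2, it was -0.88.

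Promoter windows are shown for Col1a2 and Col3a1 because they followed the same array order with unlike sequence. The windows run from 250 bases before to 50 bases after the annotated start, from RefSeq, build GRCm38.p6, and the array was annotated on another build. Col1a2 (chr6:4505368-4505667, plus strand) has 61% G and C and holds 2 matches to CCAAT, counting both strands, in capitals. Col3a1 (chr1:45311288-45311587, plus strand) has 37.7% G and C and holds TATAAA once, in capitals, with no CCAAT on either strand.
Col1a2: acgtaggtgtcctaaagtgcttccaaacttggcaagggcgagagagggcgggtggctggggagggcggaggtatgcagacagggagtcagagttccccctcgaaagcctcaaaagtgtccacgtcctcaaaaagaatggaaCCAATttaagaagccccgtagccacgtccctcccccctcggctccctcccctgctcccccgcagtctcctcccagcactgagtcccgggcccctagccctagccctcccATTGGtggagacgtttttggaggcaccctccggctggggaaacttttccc
Col3a1: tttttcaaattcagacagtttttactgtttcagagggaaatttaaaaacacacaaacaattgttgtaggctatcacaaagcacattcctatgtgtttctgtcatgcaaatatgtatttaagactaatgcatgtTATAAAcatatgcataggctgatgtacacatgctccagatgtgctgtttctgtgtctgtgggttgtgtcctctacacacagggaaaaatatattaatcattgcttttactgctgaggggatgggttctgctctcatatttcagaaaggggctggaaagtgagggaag

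The type IV collagens form the network of basement membranes. Col4a1 and Col4a2 encode its most widespread chains, which assemble together. Col4a1 stood at 0.039 in wild type 1 and 0.46 in wild type 2, -0.55 in knockout 1 and 0.48 in knockout 2. Col4a2 had 0.29, 0.37, -0.86 and 0.45 in that order. For both genes knockout 1 was lowest and knockout 2 highest, and knockout 2 lay just above wild type 2. The log2 differences were -0.28 (SE 0.41) and -0.54 (SE 0.46), with adjusted p = 1.00 in limma's fit, and within the shared slide they were -1.01 and -1.24. The chain genes Col4a5 and Col4a6, neighbours on chromosome X, had -0.87 and -0.76 in knockout 1 and 0.15 and 0.055 in knockout 2, relative to the wild-type mean. A second probe of Col4a6 went the other way, with 0.42 in knockout 1 and -0.19 in knockout 2 on the same scale. Col4a4, a chain of the kidney glomerulus, was well above background on 3 arrays and had -4.07, -4.11, -4.24 and -3.66, a log2 difference of 0.14 (SE 0.46). The 5 type IV genes had a median difference of -0.35 (-0.055 after normexp), with medians of -0.80 in knockout 1 and 0.15 in knockout 2, and -1.01 within the shared slide.

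Col4a1 and Col4a2 are transcribed in opposite directions on chromosome 8, head to head, and their windows are shown because the pair shares its start region. In RefSeq, build GRCm38.p6, the annotated starts lie 21 bases apart and overlap, so both transcripts cover the bases between them. The windows share 78 bases, in capitals, read on opposite strands. The Col4a1 window is chr8:11312777-11313076 on the minus strand and has 74% G and C, and the Col4a2 window is chr8:11312555-11312854 on the plus strand and has 73.7%. Each holds CCAAT once, counting both strands.
Col4a1: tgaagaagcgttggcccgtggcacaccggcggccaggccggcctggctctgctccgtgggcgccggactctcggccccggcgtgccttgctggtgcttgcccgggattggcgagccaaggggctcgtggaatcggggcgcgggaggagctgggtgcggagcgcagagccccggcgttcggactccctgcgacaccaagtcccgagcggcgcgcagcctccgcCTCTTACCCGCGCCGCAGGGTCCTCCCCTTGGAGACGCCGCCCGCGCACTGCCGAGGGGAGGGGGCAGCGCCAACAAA
Col4a2: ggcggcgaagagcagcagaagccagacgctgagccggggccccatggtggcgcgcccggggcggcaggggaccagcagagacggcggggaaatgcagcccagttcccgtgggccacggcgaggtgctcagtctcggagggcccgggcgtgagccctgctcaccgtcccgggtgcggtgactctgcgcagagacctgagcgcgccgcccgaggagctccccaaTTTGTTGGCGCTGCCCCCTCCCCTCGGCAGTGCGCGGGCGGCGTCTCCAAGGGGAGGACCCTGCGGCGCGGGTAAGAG

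Windows were at hand for 35 of the 44 collagen genes and 22 of the 27 tested, not for Col1a1, Col5a2, Col12a1, Col14a1 and Col26a1. CCAAT, on either strand, was in a window of 9 of 22 tested collagen genes (40.9%) and of 41.1% of 27025 genes. GGGCGG, the core of a GC box, was in 16 of 22 (72.7%) against 38.2% of all genes, and TATAAA in 2 of 22 (9.09%) against 15.7%. The windows of tested collagen genes had a median of 60.3% G and C against 52.7% over all windows, and the shares were not adjusted for that. These are matches of letters and do not show that a factor binds there. The type IV pair Col4a6 and Col4a5 also runs head to head, with starts 1343 bases apart and no shared window.

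Type VI collagen forms beaded filaments around cells and between fibrils. Col6a1 stood at 2.13 in wild type 1 and 1.95 in wild type 2, 1.16 in knockout 1 and 1.91 in knockout 2. It was 1 of 3 collagen genes whose knockout arrays both lay below both wild-type arrays, knockout 2 narrowly. Those 3 were 11.1% of the 27, against 6.08% of all genes. Its log2 difference was -0.50 (SE 0.34, adjusted p = 1.00 in limma). Col6a2 had -0.57, -0.85, -1.59 and -0.63 and Col6a3 0.38, 0.62, 0.11 and 0.55, both lowest in knockout 1 with knockout 2 between the wild-type arrays. Col6a4 followed another order, with -0.070 in wild type 1 and -1.18, -0.70 and -1.25 in wild type 2, knockout 1 and knockout 2. It was 1 of the 2 tested collagens that were not lowest in knockout 1, and its wild-type arrays differed by more than any other tested collagen's (SD 0.78, n = 2). A second, dimmer Col6a4 probe, well above background on 2 arrays, was highest in knockout 1. It had -4.89 in wild type 1, -4.78 in wild type 2, -4.56 in knockout 1 and -5.12 in knockout 2.

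The basement membrane zone also holds the multiplexins, whose C-terminal fragments include endostatin. Col18a1, the source of endostatin and a chain of epithelial and vascular basement membranes, stood at 2.15 in wild type 1 and 3.17 in wild type 2, 0.82 in knockout 1 and 2.51 in knockout 2. Knockout 2 lay between the wild-type arrays and knockout 1 well below both. A second probe gave the same order, with 1.85, 2.95, 0.69 and 2.04. The log2 difference was -0.99 (SE 0.62, interval from -2.49 to 0.51, adjusted p = 1.00). Its relative Col15a1 had -2.33, -2.83, -3.66 and -2.52, again with knockout 1 alone below wild type. Col7a1, whose anchoring fibrils tie the basement membrane to the stroma, had -0.036, -0.36, -0.37 and -0.29, and its knockout arrays lay close to wild type 2.

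The fibril-associated collagens sit on the surface of other fibrils. Col16a1 stood at 1.03, 1.22, 0.037 and 1.28 in the order wild type 1, wild type 2, knockout 1, knockout 2, and Col20a1 had -1.79, -1.50, -2.53 and -1.88. Second probes of both genes also had knockout 1 lowest. Col12a1 and Col14a1, found on type I fibrils of dense connective tissue, had -0.32 and -0.25 relative to the wild-type mean in knockout 1. A second Col14a1 probe had 0.77 in knockout 2, where the first had -0.037. Col9a2, a chain of the cartilage collagen IX, was the other gene not lowest in knockout 1, with -2.81, -2.79, -2.97 and -3.31. Col9a2 and Col20a1 were, after Col6a1, the remaining collagens without overlap between genotypes, with log2 differences of -0.34 (SE 0.37) and -0.56 (SE 0.37) and adjusted p = 1.00 in limma's fit.

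The remaining members had low signals. Col8a2, a short-chain collagen, had -3.09, -2.84, -3.36 and -2.06, and was the collagen highest above wild type in knockout 2, by 0.90. The transmembrane chain gene Col23a1 had -2.63, -2.62, -2.67 and -2.35. Of its 3 probes above the filter, the brightest gave a log2 difference of 0.11 and the others -0.15 and -0.30. Col26a1 had -3.97, -4.63, -5.70 and -3.86, and its knockout 1 signal was not well above background. The 15 genes outside the fibrillar and type IV classes had a median difference of -0.35 (-0.16 after normexp), with medians of -0.40 in knockout 1, 0.043 in knockout 2 and -0.53 within the shared slide. With Col7a1, Col15a1 and Col18a1 counted with type IV, the medians of the type IV and other classes were -0.36 and -0.35. Of the 27 genes, 24 had a negative difference, with a median of -0.34 over the 27 (-0.16 after normexp, with 22 negative), against 6300 of 14396 and 0.037 over all genes. The Col23a1 window, the example of a transmembrane collagen, is chr11:51289670-51289969 on the plus strand of GRCm38.p6, with its GGGCGG match on either strand in capitals.
Col23a1: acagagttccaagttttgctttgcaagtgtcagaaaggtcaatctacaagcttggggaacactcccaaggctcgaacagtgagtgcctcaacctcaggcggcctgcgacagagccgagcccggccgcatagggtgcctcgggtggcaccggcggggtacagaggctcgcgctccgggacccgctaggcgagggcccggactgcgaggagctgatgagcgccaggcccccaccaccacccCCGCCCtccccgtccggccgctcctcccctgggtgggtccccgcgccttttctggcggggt

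**Figure D2:**
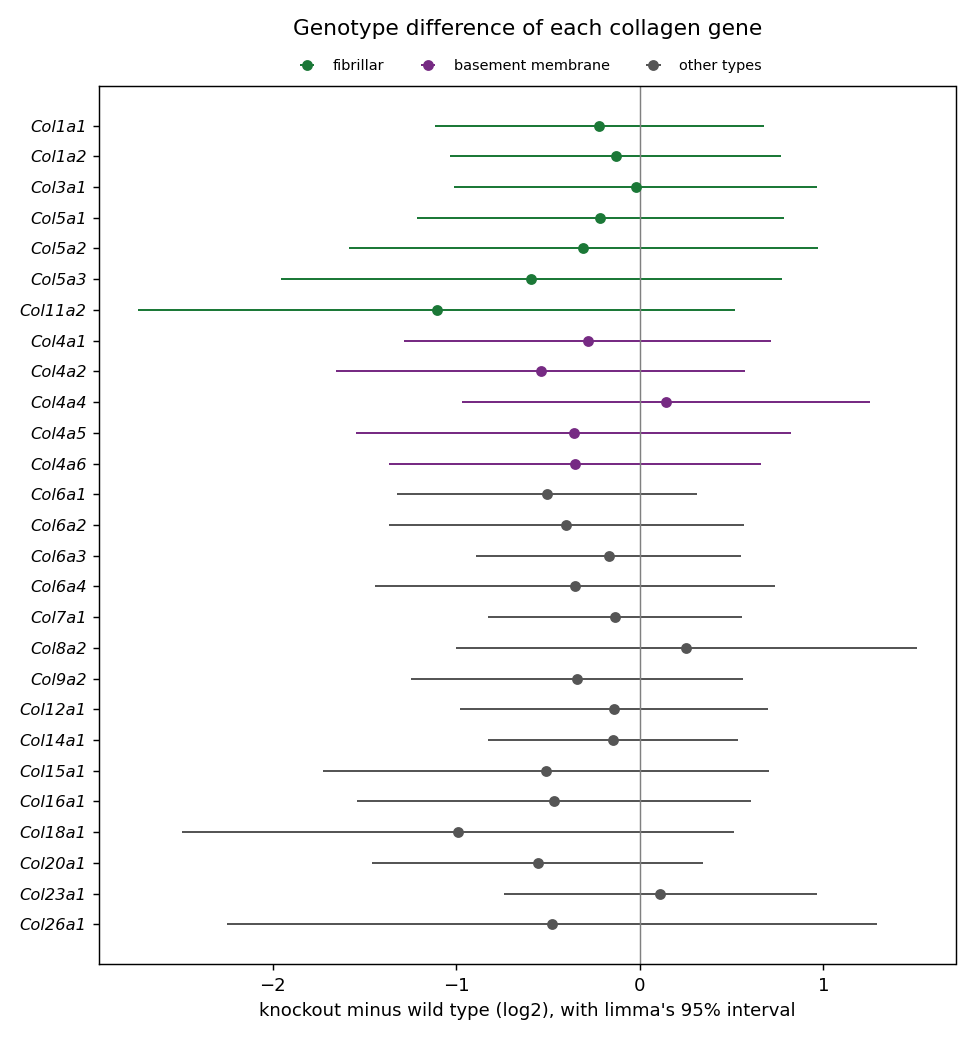
Difference between genotypes, knockout minus wild type, for each tested collagen gene (log2, horizontal axis), with limma's 95% interval as the bar, coloured by class. All 27 intervals hold 0, and the points run from -1.11 for Col11a2 to 0.25 for Col8a2.

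How far these values rest on single arrays was read from fits without each array in turn. Without knockout 1 the median difference of the 27 genes was 0.11 and 8 of them were negative. Without knockout 2 the median was -0.76 and all 27 were negative. In that fit limma called 2 collagen genes lower, Col11a2 (log2 difference -2.05, adjusted p = 0.0244) and Col18a1 (-1.84, adjusted p = 0.0215), where 2.06% of all genes were called lower. The lone knockout array was there assumed to vary like the wild-type arrays, and these calls compare knockout 1 with wild type, not the genotypes. Without knockout 1, wild type 1 or wild type 2 the count of collagen calls was 0.

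Making a collagen takes enzymes that hydroxylate, fold and export its chains. Of 18 such genes tested, 0 were called in either direction (0.0417% of all genes were), 15 were lowest in knockout 1 (32.6% of all genes were) and their medians were -0.54 in knockout 1 and 0.13 in knockout 2. P4ha2, a prolyl hydroxylase subunit, stood at -0.55, 0.39, -1.86 and -0.25 in the order wild type 1, wild type 2, knockout 1, knockout 2. Fkbp10, a collagen chaperone of the endoplasmic reticulum, had 1.67, 2.32, 0.22 and 1.85, and P3h4, a partner of lysyl hydroxylation, 1.27, 1.76, -0.34 and 1.57. Mia3, which loads procollagen into transport carriers, had 4.15, 4.61, 3.36 and 4.18. In each of these 4 genes, those of smallest unadjusted p in the list, knockout 1 was lowest, and knockout 2 lay between the wild-type arrays. Not all of the 18 had this order: 1 was highest in knockout 1 (34.2% of all genes were). A positive difference was found for 4, but some of these were also lowest in knockout 1, with knockout 2 above both wild-type arrays. The log2 differences were -0.98 for P4ha2 (SE 0.60), -0.96 for Fkbp10 (SE 0.56), -0.90 for P3h4 (SE 0.62) and -0.61 for Mia3 (SE 0.38), none past the threshold.

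Secreted procollagen is trimmed by proteases and cross-linked by lysyl oxidases. Of 10 genes tested for these steps 0 were called, against the same 0.0417% of all genes as for each list here, with medians of -0.40 in knockout 1 and 0.41 in knockout 2. The lysyl oxidase genes Lox and Loxl1 had -1.53 and -1.23 in knockout 1 and 0.24 and 0.50 in knockout 2, relative to the wild-type mean. Lox was well above background on 3 arrays only. Its knockout 1 level of -4.64 was close to the dimmest probe well above background there (-4.84). Bmp1, a procollagen C-proteinase, had 0.63 in knockout 1 and 0.14 in knockout 2. Of 10 genes of collagen breakdown 0 were called, with medians of -0.49 and 0.15. Timp2, an inhibitor of matrix metalloproteinases, had 3.16, 3.30, 2.12 and 3.34, and the gelatinase gene Mmp2 had -0.62 and -0.50 relative to the wild-type mean in knockout 1 and 2.

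Cells bind collagen through integrins and discoidin receptors. Of 6 receptor genes tested 0 were called, with medians of -0.50 and 0.30 in knockout 1 and 2. Ddr1, the discoidin receptor of epithelial cells, had 0.40 in knockout 1 and -0.067 in knockout 2 relative to the wild-type mean, while Ddr2, that of mesenchymal cells, had -0.52 and 0.24. Of 16 genes for laminins, nidogens, perlecan and other basement membrane partners 0 were called, with medians of -0.25 and 0.11. Among these 16, 8 were lowest in knockout 1 (32.6% of all genes were) and 3 highest there (34.2% were), and 7 had a positive difference. Both knockout arrays lay below both wild-type arrays for 3 of them (6.08% of all genes) and above both for 2 (8.66%). The laminin chain gene Lamb2 had -0.26, -0.20, -1.74 and -0.05. Pxdn, a peroxidase that cross-links type IV collagen, lay below both wild-type arrays in both knockout arrays, with 0.18, 0.42, -0.56 and -0.10 (log2 difference -0.63, SE 0.30, unadjusted p = 0.0803, adjusted p = 1.00). Of 16 genes of TGF-beta signalling, a known inducer of collagen synthesis, 0 were called, with medians of -0.33 and 0.0030.

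Marker genes of the cells that make collagen took a like order across the arrays. For 10 fibroblast markers the medians relative to wild type were -0.63 in knockout 1 and 0.52 in knockout 2, and their summed signal, in units of the array's 75th percentile, came to 27.2 in wild type 1, 38.2 in wild type 2, 24.7 in knockout 1 and 45.2 in knockout 2. For 10 smooth muscle markers the medians were -0.91 and 0.61, and the sums were 188 and 216 in wild type and 108 and 322 in the knockout arrays. Acta2, the smooth muscle actin, had levels of 5.46, 5.75, 4.52 and 6.16. For 6 pericyte markers the medians were -0.81 and 0.24, with sums of 7.58 and 9.48 in wild type and 5.13 and 10.7 in the knockout. All of these markers were well above background on all 4 arrays. Not every marker had this order. The fibroblast markers Fbln1 and Pdgfra had 0.93 and -0.40 in knockout 1 and 0.21 and -0.33 in knockout 2. Of the smooth muscle markers, Hhip had 0.092 in knockout 1 and -0.38 in knockout 2, and Lmod1 had -1.23 and -0.79. The pericyte marker Pdgfrb had 0.065 and -0.32.

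Epithelial markers were mostly highest in knockout 1. For 10 of them the medians were 0.48 in knockout 1 and 0.010 in knockout 2, and 7 of 10 were highest in knockout 1, where 34.2% of all genes were. Summed, they came to 1213 in wild type 1, 930.3 in wild type 2, 1364 in knockout 1 and 1092 in knockout 2. Vil1, the microvillus protein villin, had 5.998, 5.56, 6.71 and 5.43. The keratin gene Krt18, named after its values were seen, went the other way, with -0.56 in knockout 1 and 0.49 in knockout 2. Endothelial markers had medians of -0.27 and -0.13 for 7 of 8 tested (sums of 16.0 and 19.1 in wild type, 14.5 and 20.9 in knockout). Markers of neurons and glia had -0.71 and -0.13 for 7 of 8 (sums of 86.7 and 57.2, then 43.6 and 116). Leukocyte markers had -0.22 and -0.27 for 6 (sums of 18.3 and 12.3, then 14.3 and 12.8). Adipocyte markers had -1.35 and 1.15 for 4 of 6 (sums of 12.4 and 14.8, then 17.1 and 10.4), with Cfd, the adipsin gene, at -1.67, -1.39, -5.94 and 0.91. Adipoq and Cfd were well above background on 2 and 3 arrays. In knockout 1 both, Adipoq at -6.47, lay below the dimmest probe well above background there (-4.84). The adipocyte median in knockout 1 thus rests in part on background-level signals. The adipocyte sums ran against the median, and Cidec, a lipid droplet gene, made up the larger share of them on each array. Mesothelial markers had -0.87 and 0.63 for 2 of 5 (sums of 49.6 and 36.4, then 41.2 and 63.2), one of which, Krt19, is also epithelial. Plin1, Lep, Upk3b, Wt1, Lrrn4, Tek and Gfap were below the filter. The part of tissue composition in the collagen values was not tested.

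**Figure D3:**
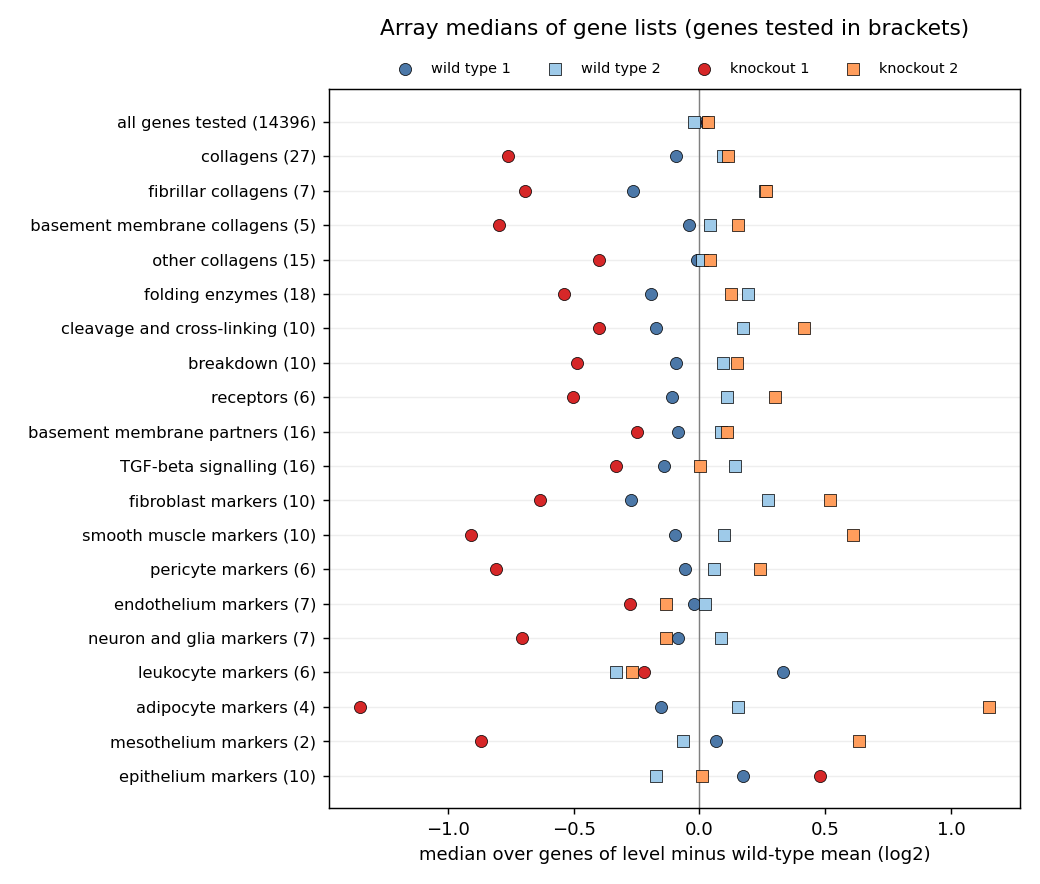
Median over the genes of each list of the level minus the wild-type mean (log2, horizontal axis), 1 point per array, with the number of genes tested in brackets. Each collagen class and each list but the leukocyte and epithelial markers lies lowest in knockout 1. Collagens are at -0.76 there, adipocyte markers at -1.35, mesothelium markers at -0.87, and neuron and glia markers at -0.71. Of the 4 adipocyte markers, 2 were not well above background on all 4 arrays. Epithelial markers lie highest there, at 0.48. The median of all genes stays near 0 on each array, at 0.032 in knockout 1 and 0.036 in knockout 2.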

How the data were processed

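Total RNA of small intestine was labelled with Cy3 and hybridised to 1-colour Agilent mouse arrays, per the labels' protocols, and read with Agilent Feature Extraction 11.5.1.1, per the submitters' processing notes. The deposited intensity is background-subtracted and detrended, per the file headers, and not scaled between arrays. The deposited log2 value table of the authors, whose scale is not stated, matched log2 intensity minus the array's 75th percentile and the probe's median over the 4 arrays (r = 1.00 on each array over 39408 probes). Column medians of that table were 0.053 (wild type 1), -0.095 (wild type 2), -0.108 (knockout 1) and 0.124 (knockout 2).

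Control spots and spots flagged as outliers in their own signal (91 to 129 per array) were left out. Spots flagged only for their background were kept. Duplicate spots were averaged on the log2 scale, and each array's 75th percentile was subtracted. Probe accessions were looked up in RefSeq's GRCm38.p6 gene table, where 28025 of 39429 matched 1 symbol and 11404 had no single match. A probe had to be well above background, on most of its spots, on at least 2 arrays (24010 were), and the brightest probe stood for a gene. Genotypes were compared over 14396 genes in limma 3.58.1 (R 4.3.3) by lmFit and trended eBayes, and p-values were adjusted by Benjamini-Hochberg over all genes and called under 0.05. The script was tested on simulated data, for large changes only. Alternatives covered the background correction (normexp, offset 50), the scaling, the source of values, the filter, the probe rule, the variance model, pairing by replicate number, the shared slide and each array left out.

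The members and gene lists were chosen with earlier results of these data known. Every collagen gene may be named, and of each other list up to 4 genes of smallest unadjusted p. Windows are shown for the pair with overlapping starts and for 1 collagen of each main kind. That of Col3a1 was chosen after its values were seen.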

Additional observations from a re-analysis of the deposited data

How the results depend on the processing

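The replicate numbers are shared by the genotypes, but with 2 pairs they mark no stated litter or day, and same-numbered arrays deviated together with a correlation of only 0.05. With the replicate block limma called 32 genes, and 0 collagens (2 at an unadjusted p under 0.05). Calls over all genes numbered 0 when only probes well above background on all 4 arrays were used, a filter that removes the deleted genes, and 0 to 431 when an array was left out. Collagen calls numbered 0 under each full-array alternative and 0 to 2 when an array was left out. Normexp was fitted without 6 spots of knockout 2 dimmer than their background, a choice made after seeing the data, and gave list medians of 0.012 for endothelium and -0.11 for neurons and glia and gene differences of 0.12 for Col26a1 and 0.035 for Col9a2. It brought the collagen medians to -0.16 for all, -0.12 for fibrillar, -0.055 for type IV and -0.16 for other chains. List medians with the sign turned under normexp were 0.052 for cleavage and cross-linking, 0.020 for receptors, 0.036 for adipocyte and 0.0023 for mesothelium markers. The mean of probes gave 0.090 for Col14a1 and -0.11 for Col23a1. Within the shared slide Col23a1 had -0.050, Col4a4 -0.12, Col6a4 0.48 and Col8a2 -0.53, all with the sign turned. The cause of these changes was not tested.

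Medians within the shared slide were -0.79 for all collagens, -0.88 for fibrillar and -1.01 for type IV chains, -0.77 for folding, -0.84 for cleavage and cross-linking, -0.64 for breakdown, -0.61 for receptors, -0.36 for basement membrane partners, -0.97 for fibroblast, -1.003 for smooth muscle, -1.04 for pericyte, -0.16 for endothelium, 0.59 for epithelium, -1.55 for adipocyte and 0.17 for leukocyte markers. With an array left out, medians ran from -0.76 to 0.11 for all collagens, -0.69 to 0.27 for fibrillar, -0.80 to 0.15 for type IV and -0.40 to 0.043 for other collagens. They ran from -0.40 to 0.41 for cleavage and cross-linking, -0.54 to 0.13 for folding, -0.49 to 0.15 for breakdown, -0.50 to 0.30 for receptors, -0.25 to 0.11 for basement membrane partners, -0.33 to 0.0030 for TGF-beta signalling, -0.63 to 0.52 for fibroblast, -0.91 to 0.61 for smooth muscle, -0.81 to 0.24 for pericyte, -0.27 to -0.042 for endothelium, -0.71 to -0.13 for neuron and glia, -1.35 to 1.15 for adipocyte, -0.87 to 0.63 for mesothelium, 0.010 to 0.48 for epithelium and -0.61 to 0.088 for leukocyte markers.

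Single collagens changed sign when an array was left out, with ranges from -0.59 to 0.15 for Col1a1, -0.56 to 0.30 for Col1a2, -0.51 to 0.46 for Col3a1, -0.69 to 0.27 for Col5a1, -0.90 to 0.29 for Col5a2, -1.41 to 0.23 for Col5a3, -0.80 to 0.23 for Col4a1, -1.19 to 0.11 for Col4a2, -0.15 to 0.43 for Col4a4, -0.87 to 0.15 for Col4a5, -0.76 to 0.055 for Col4a6, -0.88 to 0.075 for Col6a2, -0.39 to 0.054 for Col6a3, -0.90 to 0.20 for Col6a4, -0.29 to 0.027 for Col7a1, -0.40 to 0.90 for Col8a2, -0.32 to 0.043 for Col12a1, -0.29 to 0.0014 for Col14a1, -1.08 to 0.063 for Col15a1, -1.09 to 0.16 for Col16a1, -0.047 to 0.27 for Col23a1 and -1.40 to 0.44 for Col26a1. Col6a1, Col9a2, Col11a2, Col18a1 and Col20a1 stayed negative without each array in turn.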
